A study of Homo sapiens with 6 samples.

Results

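The genes described are 10 secreted antagonists of Wnt signalling: DKK1, DKK2, DKK3 and DKK4 of the Dickkopf family, SFRP1, SFRP2, SFRP4, SFRP5 and FRZB of the secreted Frizzled-related family, and WIF1. They were taken by gene symbol from the deposited expression table of 58735 genes, and all 10 were found. The members were selected on measured values, since DKK1 and SFRP4 had been singled out for being higher in shACAT2 than in shNC cells in these same libraries, so the values of the 10 members in the 2 groups are given as a description and no p-value is printed for any of them.

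Wnt ligands are secreted lipid-modified glycoproteins that bridge a Frizzled receptor and the coreceptor LRP5 or LRP6, which halts the breakdown of β-catenin and lets it switch on target genes with TCF/LEF factors. The antagonists act outside the cell at different steps. DKK1, DKK2 and DKK4 bind LRP5 and LRP6, with the Kremen proteins as additional receptors, whereas the SFRP proteins, FRZB and WIF1 bind the Wnt ligands themselves. DKK3 is a divergent family member that does not act through LRP6 in the same way. In tumours of the stomach and colon, several of these genes are known for silencing by promoter methylation, and DKK1 is also known as a target gene of β-catenin.

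The data are RNA-seq libraries of total RNA from HGC-27, an established line of undifferentiated human gastric carcinoma, and the comparison asks how ACAT2, a cytosolic acetyl-CoA acetyltransferase, bears on gene expression. The 3 shNC libraries came from cells labelled WT that carried the control vector pSIH-H1-Puro-shNC. The 3 shACAT2 libraries came from cells with an ACAT2 knockdown that carried pSIH-H1-Puro-shACAT2. Both vectors were left on the cells for 24 h before puromycin was applied for 7 days, so each is a selected population and not a clone, and the labels do not give which ACAT2 hairpin was used. The submitters describe the replicates as biological. The p-values below measure the spread between these libraries alone.

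Library depth ranged from 14086416 to 16067486 fragments assigned to genes. ACAT2 was measured at 14.2, 11.7 and 12.7 FPKM (fragments per kilobase of exon, scaled to sequencing depth) in the shNC libraries 1 to 3 and at 6.19, 5.46 and 6.05 FPKM in the shACAT2 libraries 1 to 3, and per-library values below keep this order. It was lower in shACAT2 cells by limma (log2 fold change −1.01, standard error 0.10, adjusted p = 0.0059), and the adjusted p was 0.0512 without shNC-3. The library shACAT2-3 stood apart: 7477 genes had fragments in that library alone, against 416 to 657 in the others, and genes silent elsewhere carried 0.778 fragments per kilobase there against 0.0508 to 0.0809. A close pair was formed by shNC-2 and shNC-3, with a chi-square per gene of 1.75 against 13.7 to 52.3 for other pairs within a group. The main p-values count them as separate replicates, and averaging them was an alternative. The label of gastric cancer cells was set against marker genes. The 8 epithelial markers summed to 2.28 to 2.47 FPKM in shNC and 2.87 to 3.28 FPKM in shACAT2 libraries, with EPCAM at most at 0.212 FPKM and KRT18 and KRT19 listed at 0 in every shNC library. CDH1 reached 0.222 FPKM among the shNC libraries and 1.15 FPKM among the shACAT2 libraries. The other epithelial markers had overlapping groups. Means in shNC and shACAT2 cells were 1.01 and 0.731 FPKM for CLDN7, 0.483 and 0.481 for CLDN4, 0.528 and 0.676 for KRT8, and 0.138 and 0.143 for ESRP1. CLDN7 alone among them was tested by limma (log2 fold change −0.24, adjusted p = 0.502).

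The DNA just upstream of DKK1 and SFRP4 is shown because these are the members whose levels differed most between the groups. RefSeq windows of 250 bases before the transcription start were at hand for 6 of the 10 members, and DKK2, DKK3, DKK4 and SFRP1 had none. Coordinates are those of GRCh38.p14, and letters run 5′ to 3′ along the gene. Bases in an exon are left out of the sequences printed, but motifs were searched over the full 250 bases. For DKK1, on the plus strand, the window is chr10:52314031-52314280, and capitals mark the motifs found in it. For SFRP4, on the minus strand, the 152 bases of chr7:37916916-37917067 lie upstream of the first exon of its main transcript and hold no motif searched.
DKK1: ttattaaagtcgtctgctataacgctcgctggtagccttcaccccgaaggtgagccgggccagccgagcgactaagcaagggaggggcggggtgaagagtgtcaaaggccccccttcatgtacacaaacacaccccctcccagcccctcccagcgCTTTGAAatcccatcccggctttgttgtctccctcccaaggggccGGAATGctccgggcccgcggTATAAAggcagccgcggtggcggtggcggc
SFRP4: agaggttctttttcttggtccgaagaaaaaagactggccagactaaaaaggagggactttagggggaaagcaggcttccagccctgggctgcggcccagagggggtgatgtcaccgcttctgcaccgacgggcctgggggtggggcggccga

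The capitals in the DKK1 window mark a TCF/LEF motif (CTTTGAA) from −95 to −89, a TEAD motif (GGAATG) from −50 to −45 and a TATA box (TATAAA) from −30 to −25, counted from the base before the RefSeq start, and none overlaps another. A total of 5 motifs was searched on both strands, chosen with the windows in view, and the share of all 35116 RefSeq windows of this length that hold each was 5.94% for TCF/LEF (CTTTGAA or CTTTGAT), 11.9% for TEAD, 10.7% for the TATA box, 6.57% for AP-1 (TGANTCA) and 21.2% for the CRE half-site (TGACG). The SFRP4 window had a CRE half-site from −48 to −44, within exon sequence. None of these letters occurred in the windows of SFRP2, SFRP5, WIF1 and FRZB. The windows of WIF1 and FRZB begin within annotated exon sequence, and that of SFRP2 meets an exon after 213 bases. For these genes, the absence of a motif therefore does not describe upstream DNA alone. A match describes the sequence and is not a measured binding site.

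DKK1, the founding Dickkopf inhibitor of LRP5 and LRP6, went from a middling level to a high one in shACAT2 cells. Its level was 8.03, 7.41 and 7.36 FPKM in the shNC libraries and 35.3, 28.0 and 32.7 FPKM in the shACAT2 libraries. All 3 shACAT2 values lay far above the shNC values, and the lowest shACAT2 value was in shACAT2-2. The means were 7.60 ± 0.371 (SD, n = 3) in shNC and 32.0 ± 3.72 (SD, n = 3) in shACAT2 cells, a 4.21-fold higher level. On the log2(FPKM + 1) scale, which is used for all log2 differences here, the difference was 1.93 (standard error 0.11), and it was 1.92 without shACAT2-3. Ordered by level among the 13832 genes whose mean reached 1 FPKM in shNC or shACAT2 cells, DKK1 moved from place 5544 in shNC to place 1404 in shACAT2 cells, and its log2 difference was the 5th highest, a place that follows in part from how the gene was chosen. The values rest on 265 to 1182 fragments per library. DKK1 (ENSG00000107984, chr10:52314296-52318042) shares 212 exon bases, 9.61% of its total, with the antisense gene PRKG1-AS1, whose level did not exceed 0.0820 FPKM, while the other 9 members share no exon base with another annotated gene.

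**Figure D1:**
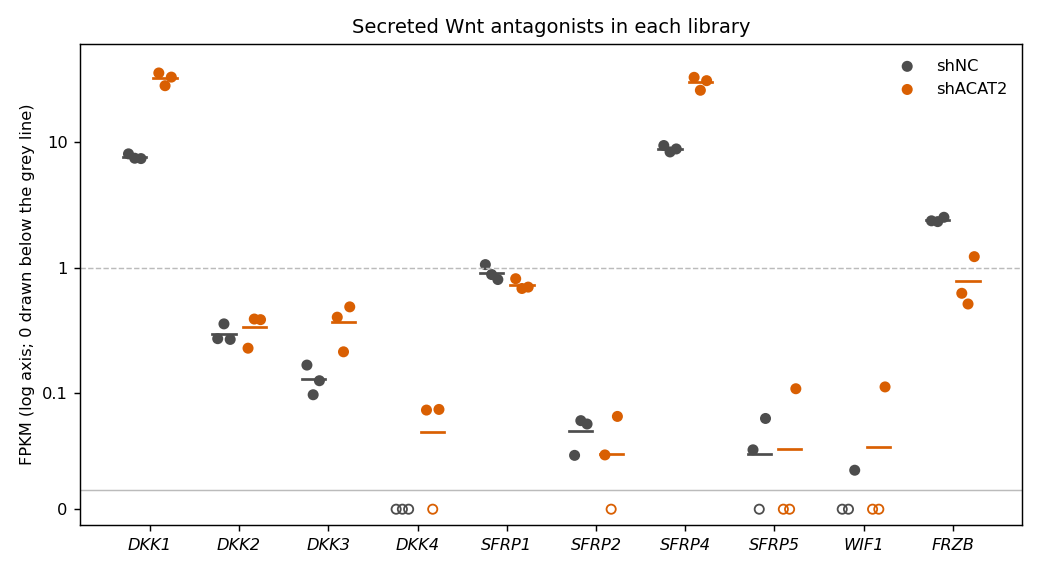
Level of each of the 10 antagonists in FPKM on a log axis, 1 point per library, with shNC in grey and shACAT2 in orange; short lines are group means, open circles below the solid grey line are libraries at 0, and the dashed line is at 1 FPKM. DKK1 and SFRP4 stand highest and their shACAT2 points lie above all shNC points, FRZB shows the opposite order, and DKK4, SFRP2, SFRP5 and WIF1 lie near 0 in both groups.

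The other Dickkopf genes were at low levels in both groups. DKK2 (chr4:106921802-107283806), which binds the same coreceptors and can act as an inhibitor or a weak activator, was at 0.272, 0.357 and 0.269 FPKM in shNC and 0.229, 0.390 and 0.386 FPKM in shACAT2 libraries. These groups overlapped, on 15 to 28 fragments per library. DKK3 (chr11:11963106-12009769), the divergent family member, was at 0.168, 0.0975 and 0.126 FPKM in shNC and 0.404, 0.214 and 0.487 FPKM in shACAT2 libraries. All 3 shACAT2 values of DKK3 lay above the shNC values, with a ratio of means of 2.82, on 8 to 13 fragments in shNC and 18 to 37 in shACAT2 libraries. The highest DKK3 value was in shACAT2-3, where a gene of this length that is silent elsewhere would carry 3.94 fragments, and the other 2 shACAT2 libraries also lay above every shNC library. DKK4, another ligand of LRP5 and LRP6, had no fragment in the shNC libraries and 1, 0 and 1 in the shACAT2 libraries, and a count of 0 allows up to 3 fragments, or 0.195 to 0.224 FPKM for this gene.

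SFRP4, a secreted Frizzled-related protein that binds Wnt ligands, was higher in shACAT2 cells to nearly the same extent as DKK1. It was at 9.35, 8.31 and 8.78 FPKM in the shNC libraries and at 32.6, 25.7 and 30.7 FPKM in the shACAT2 libraries. The groups did not overlap, and shACAT2-2 again had the lowest of the shACAT2 values. The means were 8.82 ± 0.519 (SD, n = 3) and 29.7 ± 3.55 (SD, n = 3), which is a 3.36-fold higher level, and the log2 difference was 1.64 (standard error 0.12), or 1.61 without shACAT2-3. SFRP4 moved from place 4925 to place 1536 by level, and its log2 difference was the 17th highest of the 13832. It was counted from 486 to 1784 fragments per library. SFRP4 (ENSG00000106483) spans chr7:37905932-38025695 on the minus strand, and this gene model joins a transcript that starts at 37916915 with another, SFRP4-202, that starts at 38025695. The table gives a single value per gene, so the transcripts were not separated.

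FRZB (chr2:182833275-182867162), also known as SFRP3, was the member that was lower in shACAT2 cells. Its level was 2.36, 2.32 and 2.51 FPKM in shNC and 0.625, 0.514 and 1.22 FPKM in shACAT2 libraries. Every shACAT2 value was below every shNC value, and shACAT2-3 lay well above the other 2. The means were 2.40 ± 0.102 (SD, n = 3) and 0.787 ± 0.381 (SD, n = 3), a 3.05-fold lower level on 27 to 137 fragments per library. The log2 difference was −0.95 (standard error 0.17), −1.11 without shACAT2-3 and −1.57 with a pseudocount of 0.1 in place of 1, since the added 1 FPKM weighs more at such levels.

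SFRP1 (chr8:41261958-41309497), a widely expressed antagonist of the family, was at 1.06, 0.881 and 0.804 FPKM in shNC and 0.816, 0.682 and 0.700 FPKM in shACAT2 libraries. The groups overlapped by the values of shNC-3 and shACAT2-1. SFRP2 and SFRP5, close relatives of SFRP1, had 1, 2 and 2 and 1, 0 and 2 fragments in shNC libraries, respectively. In the shACAT2 libraries SFRP2 had 1, 0 and 2 fragments and SFRP5 had 0, 0 and 3. Both were at the limit of detection, since 3 fragments equal 0.0856 to 0.0984 FPKM for SFRP2 and 0.0948 to 0.109 FPKM for SFRP5. WIF1, which binds Wnt ligands through a domain unlike that of the SFRP proteins, had 0, 0 and 1 fragments in shNC and 0, 0 and 4 in shACAT2 libraries. The 4 WIF1 fragments were in shACAT2-3, where a gene of its length that is silent elsewhere would carry 1.84. A difference in DKK4, SFRP2, SFRP5 or WIF1 was not detectable at this depth.

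In all, 3 members entered the test across genes, DKK1, SFRP4 and FRZB, and FRZB did so through its shNC level alone, while the other 7 lay below 1 FPKM in both groups. All 3 passed an adjusted p of 0.05 in limma, 2 of them higher and 1 lower, where 5.1% of the 13832 genes tested were called, 3.3% higher and 1.81% lower. DKK1 and SFRP4 also had an absolute log2 difference above 1 with an unadjusted p under 0.05, as did 1.5% of the genes tested. This contrast chose the members, so nothing is read from these counts. Over the 10 members, the groups did not overlap for 4, with DKK1, DKK3 and SFRP4 above and FRZB below. Of the 41161 genes with a fragment in any library, 15% did not overlap, 8.08% lying above and 6.93% below, and of the genes tested 30.7% did not, 16.2% above and 14.5% below. In these bulk libraries, more RNA per cell and more cells of an expressing kind cannot be told apart.

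The order of the members by level changed at the top. In shNC cells it ran from SFRP4 at 8.82 FPKM through DKK1 at 7.60, FRZB at 2.40, SFRP1 at 0.914, DKK2 at 0.299 and DKK3 at 0.131 FPKM to 4 members near 0, and the library values of neighbours from SFRP4 to DKK3 did not overlap. In shACAT2 cells DKK1 led at 32.0 FPKM with SFRP4 at 29.7 FPKM, and their ranges of values overlapped. Below them, the mean levels of FRZB (0.787 FPKM) and SFRP1 (0.733 FPKM) did not differ beyond their spread, nor did those of DKK3 (0.368 FPKM) and DKK2 (0.335 FPKM). Within a library the ratio of DKK1 to SFRP4 was 0.858, 0.891 and 0.838 in shNC and 1.08, 1.09 and 1.07 in shACAT2 cells. The ratio thus sat below 1 in all shNC and above 1 in all shACAT2 libraries, and relative to its mean it varied less within a group than the level of either gene. The 10 members together summed to 21.3, 19.4 and 20.0 FPKM in shNC and 70.1, 55.5 and 66.5 FPKM in shACAT2 libraries. DKK1 and SFRP4 made up 80.7% to 81.6% of that sum in shNC and 95.3% to 96.9% in shACAT2 libraries.

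The members were then set beside the genes whose products they bind. The summed level of the 4 DKK genes was 8.03 ± 0.383 FPKM (SD, n = 3) in shNC and 32.7 ± 3.80 FPKM (SD, n = 3) in shACAT2 cells, nearly all of it DKK1. The summed level of LRP5 and LRP6, the coreceptors that DKK1 occupies, was 22.5 ± 0.477 FPKM (SD, n = 3) and 17.1 ± 1.23 FPKM (SD, n = 3). The DKK sum was thus below the LRP5 and LRP6 sum in every shNC library and above it in every shACAT2 library. The sum of SFRP genes and FRZB was 12.2 ± 0.627 FPKM (SD, n = 3) in shNC and 31.2 ± 3.81 FPKM (SD, n = 3) in shACAT2 cells. Their partners, the 19 WNT ligand genes, summed to 46.7 ± 3.40 FPKM and 66.3 ± 11.7 FPKM (SD, n = 3 each). The sum of WNT genes exceeded that of SFRP genes and FRZB in all 6 libraries. These are RNA levels per length, and no protein was measured.

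**Figure D2:**
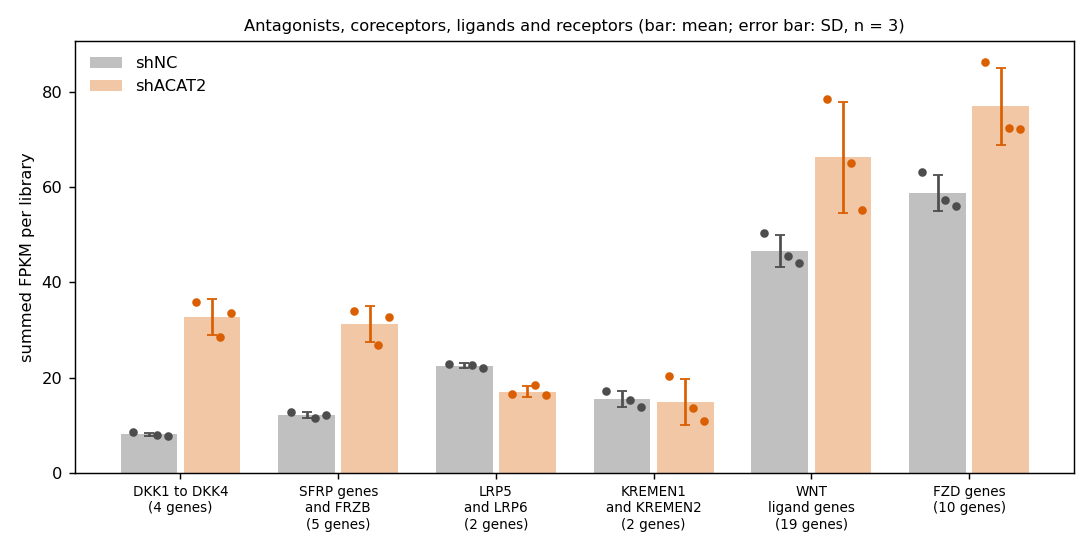
Summed FPKM of groups of genes in each library, with bars from 0 for the mean, error bars for the SD (n = 3) and points for libraries. The DKK sum lies at 8.03 in shNC and 32.7 in shACAT2 cells and crosses the LRP5 and LRP6 sum, which lies at 22.5 and 17.1, while the KREMEN sums of 15.5 and 14.9 overlap; the WNT sums lie at 46.7 and 66.3 and the FZD sums at 58.9 and 77.1.

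Among the 4 receptors bound by DKK proteins, KREMEN1 was lower in shACAT2 cells by limma, with 5.32, 4.76 and 4.54 FPKM in shNC and 3.45, 3.07 and 3.16 FPKM in shACAT2 libraries (log2 fold change −0.47, adjusted p = 0.0375). KREMEN2 was spread widely over the shACAT2 libraries (log2 fold change 0.07, adjusted p = 0.903), and its log2 fold change was −0.21 without shACAT2-1. LRP5 had a log2 fold change of −0.42 (adjusted p = 0.104, or 0.0317 with the replicate block, 0.0341 with upper-quartile scaling, 0.0367 with library-size scaling, 0.0291 with limma-voom and 0.0447 without shACAT2-1), and LRP6 of −0.31 (adjusted p = 0.460). Of 10 other extracellular inhibitors, 7 were tested and 3 (42.9%) were higher, against 3.3% of all genes tested. The list was chosen with earlier results of these data known, so nothing is read from this share. The other 4 tested were not called. For APCDD1 every shACAT2 value lay below the shNC values (log2 fold change −0.30, adjusted p = 0.200). For TRABD2B every one lay above (log2 fold change 0.34, adjusted p = 0.148). SOSTDC1 (log2 fold change 0.10, adjusted p = 0.642) and NOTUM (log2 fold change 0.13, adjusted p = 0.786) had overlapping groups. SOST, another ligand of LRP5 and LRP6, was at 0.199, 0.456 and 0.252 FPKM in shNC and 1.89, 1.46 and 2.00 FPKM in shACAT2 libraries (log2 fold change 1.10, adjusted p = 0.0149), and it passed the filter through its shACAT2 level alone. IGFBP4, an insulin-like growth factor binding protein that also antagonises Wnt receptors, rose from 85.2 to 169 FPKM (log2 fold change 0.95, adjusted p = 0.0464), and the membrane protein TPBG from 2.73 to 5.08 FPKM (log2 fold change 0.70, adjusted p = 0.0252). SOST, IGFBP4 and TPBG were picked from this list by their calls, so their shared direction with DKK1 and SFRP4 is a description only. The log2 differences of IGFBP4 and TPBG were smaller than those of DKK1 and SFRP4, but that of SOST was smaller on the log2(FPKM + 1) scale only. Its ratio of means was 5.90, and its log2 difference was 2.27 with a pseudocount of 0.1 and 2.52 with limma-voom. The SOST values rest on 7, 17 and 10 fragments in shNC and 66, 56 and 69 in shACAT2 libraries, so these sizes are imprecise.

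Over all 8 lists of Wnt pathway genes, 99 genes without the members, 70 were tested by limma. Of these, 9 (12.9%) were higher and 2 (2.86%) lower, against 456 (3.3%) and 250 (1.81%) of all genes tested, and the median log2 difference was 0.12 against 0.016. The lists were chosen with earlier results of these data known. SOST, 1 of the 9, passed the filter through its shACAT2 level alone. Nothing is therefore read from the difference in shares. Of the 706 calls over all genes, 64.6% were higher, against 54.4% with upper-quartile scaling, 54.9% with library-size scaling and 50.1% with limma-voom. Of the 7 ligand genes tested, WNT5A (8.91 to 15.1 FPKM, log2 fold change 0.70, adjusted p = 0.0164) and WNT6 (1.10 to 3.00 FPKM, log2 fold change 0.91, adjusted p = 0.0319) rose. Of 12 Frizzled and alternative receptors tested, FZD1 (log2 fold change 0.56, adjusted p = 0.0404) and FZD7 (log2 fold change 0.72, adjusted p = 0.0296) rose, while 8 of the 12 had a negative log2 fold change and the median was −0.094. Every shACAT2 value lay below the shNC values for FZD4 (log2 fold change −0.47, adjusted p = 0.113) and FZD5 (log2 fold change −0.48, adjusted p = 0.0627), and limma-voom called both lower. The R-spondin receptor LGR4 rose as well (log2 fold change 0.73, adjusted p = 0.0387), a call lost under either other scaling. In the cell interior, the list of 13 destruction complex and Dishevelled genes had 0 calls by limma, 0 at an unadjusted p under 0.05 and 0 by limma-voom. Of the 13832 genes tested, 5.1% were called by limma, so 0 calls among 13 genes lies near that share, and 3253 had an unadjusted p under 0.05. The log2 fold changes were 0.12 for DVL1 (adjusted p = 0.756), 0.15 for FBXW11 (adjusted p = 0.427) and 0.06 for DVL3 (adjusted p = 0.769). BCL9, a β-catenin cofactor, was lower in shACAT2 cells (16.0 to 8.30 FPKM, log2 fold change −0.87, adjusted p = 0.0058).

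Of 16 β-catenin target genes tested, CD44 was called by limma (3.42 to 7.08 FPKM, log2 fold change 0.87, adjusted p = 0.0048). This is a share of 6.25%, near the 5.1% of all genes tested that were called in either direction. By limma-voom BAMBI was also called higher and EPHB2 lower, where limma gave BAMBI a log2 fold change of 0.72 (adjusted p = 0.0647) and EPHB2 one of −0.28 (adjusted p = 0.216). AXIN2, a target gene in most tissues, was at 14.6, 13.9 and 13.2 FPKM in shNC and 14.7, 13.3 and 11.6 FPKM in shACAT2 libraries (log2 fold change −0.08, adjusted p = 0.727). Without shACAT2-3 its log2 fold change was 0.0084 with an adjusted p of 0.972. Of the 16 target genes, 11 had a positive log2 fold change and 5 a negative one, with a median of 0.18 against 0.016 for all genes tested. AXIN2 was named after its value was seen and does not stand for this list. DKK1, itself known as a target of β-catenin, had a log2 difference of 1.93, and the difference between it and these genes was not tested. The 11 calls on Wnt pathway genes kept their direction in every alternative that gave a value, but their adjusted p depended on single libraries. Without shNC-3 none remained (of the 70 tested, 10 higher and 5 lower at an unadjusted p under 0.05). With all libraries 14 were higher and 8 lower at that threshold, which 3253 of the 13832 genes tested passed. BCL9 and CD44 alone remained without shNC-1, shNC-2 or shACAT2-2, and also with shNC-2 and shNC-3 averaged. Without shACAT2-3, 6 remained, and without shACAT2-1, 10. With the replicate number as a block, the 11 calls were kept, 13 Wnt pathway genes in place of 9 were called higher and 4 in place of 2 lower, and the calls over all genes came to 1727 in place of 706.

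**Figure D3:**
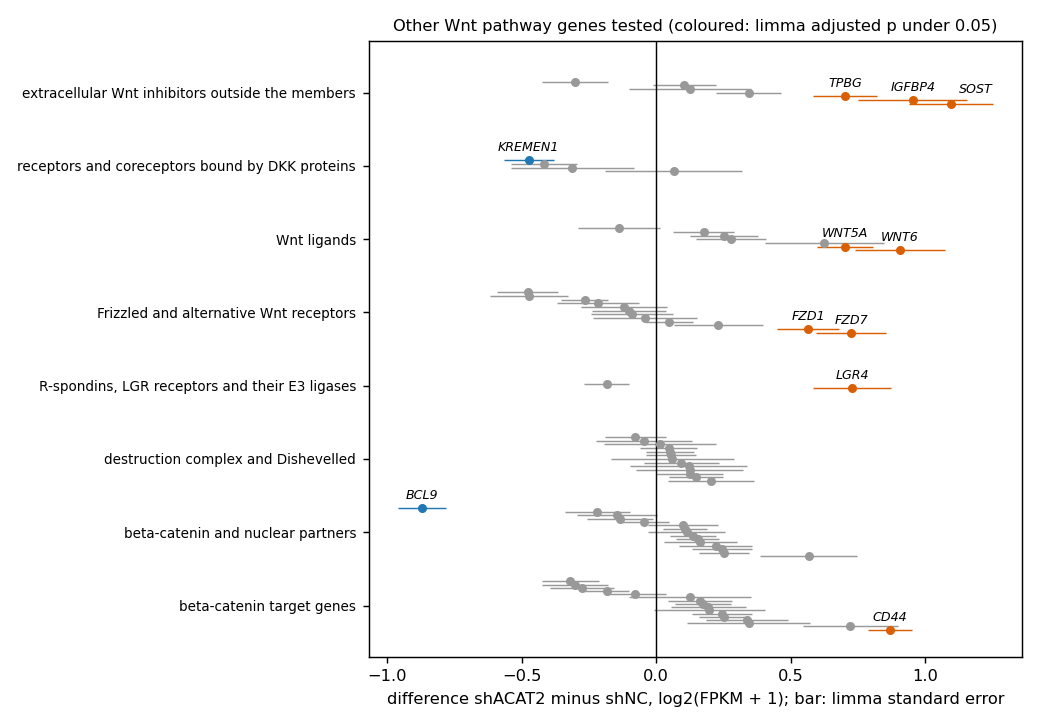
Log2 difference between shACAT2 and shNC, on log2(FPKM + 1), for each Wnt pathway gene tested outside the members, by list, with horizontal bars for the limma standard error; orange is higher and blue lower at a limma adjusted p under 0.05. The named genes run from −0.87 for BCL9 to 1.10 for SOST, and the destruction complex genes lie close to 0.

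The genes whose profile over the 6 libraries was most like that of DKK1 were sought among the 13831 other genes tested, by the root mean square difference of log2(FPKM + 1) values centred on each gene. They were KRT4, a keratin of stratified epithelia (0.0534), the chemokine CXCL14 (0.0980), the small heat shock protein CRYAB (0.108), the glycolytic enzyme PGAM1 (0.110) and the actin ACTA2 (0.120). SFRP4 followed in place 6, at 0.150. KRT4 and CXCL14 passed the filter through their shACAT2 level alone, and their likeness to DKK1 in size rests on the added 1 FPKM. With a pseudocount of 0.1 the log2 difference was 2.74 for KRT4 and 2.92 for CXCL14 against 2.05 for DKK1, and with limma-voom it was 2.81 and 2.99 against 2.01. For SFRP4 the nearest were the chemokine CCL2 (0.0535), the glycoprotein GPNMB (0.0586), the glucose transporter SLC2A3 (0.0763), PGAM1 (0.0871) and the membrane protein EMP1 (0.0990), and DKK1 stood in place 12. The likeness of EMP1 to SFRP4 in size rests on the added 1 FPKM too. At a pseudocount of 0.1 the log2 difference was 2.27 for EMP1, 1.84 for SLC2A3 and 1.83 for CCL2 against 1.73 for SFRP4. By limma-voom these were 2.31, 1.82 and 1.80 against 1.69. PGAM1 has near-identical pseudogene copies, so its counts are uncertain. KRT4 went from 0.824 ± 0.00463 FPKM (SD, n = 3) to 6.11 ± 1.06 FPKM (SD, n = 3), and CCL2 from 3.90 ± 0.157 FPKM to 14.2 ± 2.39 FPKM (SD, n = 3 each). All these genes share the libraries and the group difference, so likeness over 6 libraries is mostly likeness of that difference.

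**Figure D4:**
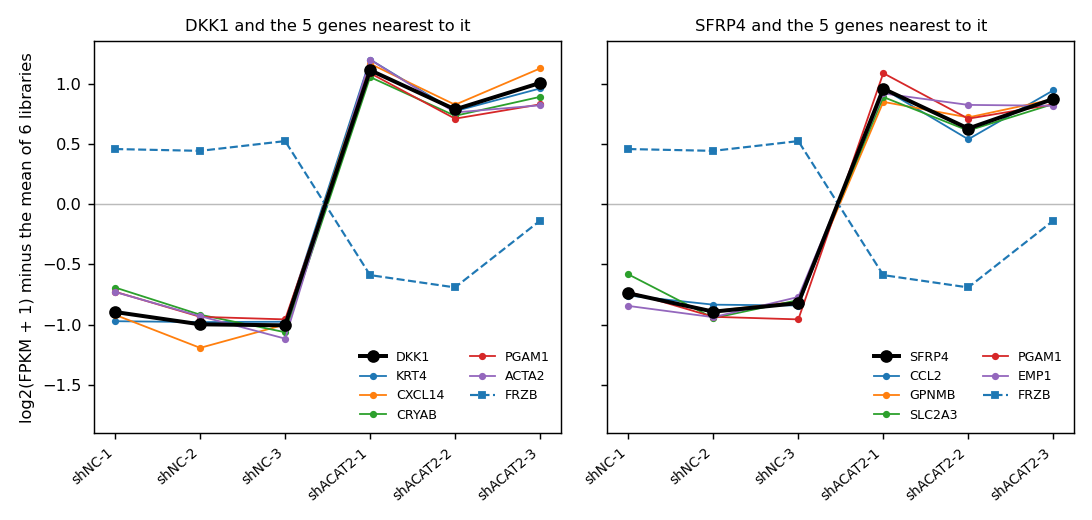
Log2(FPKM + 1) of DKK1 (left) and SFRP4 (right) in each of the 6 libraries, less the mean of the gene, with the 5 genes of smallest root mean square difference and with FRZB (dashed). DKK1 sits near −1 in shNC and between 0.79 and 1.11 in shACAT2 libraries, the 5 nearest genes follow it, and FRZB runs the other way.

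Genes beside DKK1 and SFRP4 on the chromosome were also read. PRKG1, a cGMP-dependent protein kinase that ends 15.9 kb before DKK1, was at 0.535, 0.534 and 0.732 FPKM in shNC and 0.595, 0.914 and 0.810 FPKM in shACAT2 libraries, with overlapping groups, and MBL2, 447 kb beyond DKK1, had at most 2 fragments. Beside SFRP4, NME8 had at most 4 fragments. STARD3NL, a late endosomal membrane protein 153 kb beyond SFRP4, was higher in shACAT2 cells (15.1 to 23.3 FPKM, limma log2 fold change 0.59, adjusted p = 0.0464), but the call was lost with any 1 of the 6 libraries left out, with adjusted p from 0.0567 without shACAT2-2 to 0.196 without shNC-3. EPDR1, whose gene body overlaps that of SFRP4 without a shared exon base, had a log2 fold change of 0.52 (adjusted p = 0.0781, or 0.0329 with the replicate block and 0.0460 with limma-voom). The log2 differences of these neighbours were below that of SFRP4, at 1.64.

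Markers of other cell types were read beside the members. The 10 fibroblast and stromal markers summed to 385 to 400 FPKM in shNC and 513 to 591 FPKM in shACAT2 libraries. Of these, 8 were tested and 3 (37.5%) rose by limma, against 3.3% of all genes tested. The gene lists were chosen with earlier results known, so nothing is read from this share. Those called were COL1A1 (log2 fold change 0.97, adjusted p = 0.0136), LUM (log2 fold change 0.64, adjusted p = 0.0423) and DCN (log2 fold change 0.54, adjusted p = 0.0246). Limma-voom also called COL1A2 and COL3A1 higher. For these limma gave log2 fold changes of 0.45 (adjusted p = 0.0772) and 0.47 (adjusted p = 0.0916). PDGFRA had a log2 fold change of −0.43 (adjusted p = 0.0701, or 0.0431 with the replicate block, 0.0322 with limma-voom and 0.0376 with a minimum of 10 fragments per library). The LUM call was lost with upper-quartile scaling (adjusted p = 0.0824), library-size scaling (adjusted p = 0.0738) and limma-voom (adjusted p = 0.0507). Without shNC-3 the adjusted p was 0.0973 for COL1A1, 0.152 for LUM and 0.139 for DCN, and all 3 calls were also lost without shNC-1, shNC-2 or shACAT2-2, and those of LUM and DCN without shACAT2-3. The sum was carried by COL3A1 (213 to 297 FPKM) and COL1A1 (61.0 to 121 FPKM), while FAP (0.847 to 0.387 FPKM, every shACAT2 value below the shNC values, not tested) and POSTN (67.2 to 59.7 FPKM, adjusted p = 0.647) had lower means in shACAT2 cells. Between the groups, DKK1 and SFRP4 were higher where this sum was higher and FRZB lower. Within the shACAT2 libraries the sums were 591, 549 and 513 FPKM, while DKK1 and SFRP4 were lowest in shACAT2-2. The part of these markers in the members' levels was not tested. The 8 endothelial markers summed to 0.0832 to 0.233 FPKM in shNC and 0.150 to 0.791 FPKM in shACAT2 libraries, with PECAM1, CDH5 and KDR at 0 in every shNC library. The 8 leukocyte markers summed to 1.58 to 2.09 FPKM and 2.03 to 2.39 FPKM, with CD3E and LYZ at 0 in every library other than shACAT2-3.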

How the data were processed

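Total RNA of 3 shNC and 3 shACAT2 libraries of HGC-27 cells was sequenced, with groups and replicate numbers as the labels give them. The authors deposited FPKM values per gene, and the submitters' processing notes name HISAT2 2.0.5, featureCounts 1.5.0-p3 and the build hg38. The strand setting is not given in the sources used here. Each member's gene length equals its summed exons in GENCODE release 29. Fragments were read back from FPKM and length, and 100% of the values were whole within 0.05 fragment. The FPKM denominator was not the total of fragments on genes, so scaling to that total was an alternative.

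The members and gene lists were chosen with earlier results of these data known. For the 13832 genes whose mean reached 1 FPKM in shNC or shACAT2 cells, differences in log2(FPKM + 1) were computed by limma 3.58.1 with its trend option (R 4.3.3), with Benjamini-Hochberg adjustment over all of them. The steps were tested on simulated data. Named genes are the members, called genes of the Wnt lists (in a list without a call, the 3 of highest level), ACAT2, the 5 genes nearest in profile to DKK1 and to SFRP4, and flanking protein-coding genes. AXIN2, BAMBI, EPHB2, FZD4, FZD5, LRP5, LRP6, KREMEN2, APCDD1, TRABD2B, SOSTDC1, NOTUM and the marker genes were named after their values were seen. Promoter windows are from RefSeq (GRCh38.p14). Remaining steps were run in Python 3.11.15 and pandas 2.3.3.

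Deviations from the group means of libraries with the same number correlated at 0.445, 0.126 and 0.171 for numbers 1, 2 and 3. Each exceeded 0.1, so a fit with the replicate number as a block was taken as a paired alternative, while the p-values and counts given are unpaired unless the block is named. Numbers 2 and 3 were not told apart, since shNC-2 correlated at 0.198 with shACAT2-3 and shNC-3 at 0.141 with shACAT2-2. The alternatives were no filter, a minimum of 10 fragments per library, a pseudocount of 0.1, upper-quartile and library-size scaling, limma-voom on the fragments, the replicate block, each library left out, shNC-2 and shNC-3 averaged, and another call rule. Fragment counts behind each value were 0 to 1784 for the members, and floors of 3 fragments cover counting error only.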

Additional observations from a re-analysis of the deposited data

How the results depend on the processing

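The log2 differences of DKK1 (1.86 to 2.05) and SFRP4 (1.57 to 1.73) kept their direction in all 14 alternatives. DKK1 moved most with a pseudocount of 0.1, from 1.93 (standard error 0.11) to 2.05. That of FRZB ran from −1.78 with limma-voom to −0.84. Counts of calls moved more. Over all genes, 706 calls by limma became 209 without a filter, 1165 with limma-voom, 1727 with the replicate block, 81 with shNC-2 and shNC-3 averaged, 207 at an absolute log2 fold change above 1 with an unadjusted p under 0.05, and 59 to 849 with a library left out. The 9 Wnt pathway genes called higher became 3, 1 and 1 without a filter, with the average and under that other call rule, and 0 to 8 with a library left out. The 2 called lower became 1 without a filter, 4 with a minimum of 10 fragments per library, 6 with limma-voom, 4 with the replicate block, 1 with the average, 0 under the other call rule (8 at an unadjusted p under 0.05) and 0 to 3 with a library left out. Both counts of 0 with a library left out came without shNC-3, where 10 of the 70 were higher and 5 lower at an unadjusted p under 0.05. With all libraries, 3253 of the 13832 genes tested had such a p. Pairing the libraries by the replicate block lost none of the 11 calls on Wnt genes. It brought the adjusted p of LRP5 to 0.0317, of EPDR1 to 0.0329 and of PDGFRA to 0.0431. Not every named gene was followed over the alternatives, and the other Wnt genes newly called with the block are not identified here. Among the genes not called that were followed, the sign changed for DVL1 (−0.070 to 0.32 with a library left out), KREMEN2 (−0.21 to 0.31) and AXIN2 (−0.15 to 0.0084). Fewer samples remain where a library is left out or averaged, but the counts also differed with the library left out. Calls over all genes were 849 without shACAT2-1 and 59 without shNC-3. The cause of these shifts was not tested. Members with at most 37 fragments in any library (DKK2, DKK3, DKK4, SFRP2, SFRP5 and WIF1) are limited by depth.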
